A study of Homo sapiens with 40 samples.

Results

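The response of PARP1-KO HEK293A cells to OL9-119, an inhibitor of the DNA repair enzyme TDP1, was examined in 8 RNA-seq libraries of the 40 in the series: the 4 libraries labelled KO_PARP1 with OL9 and the 4 labelled KO_PARP1 with DMSO. HEK293A is a human embryonic kidney cell line. The PARP1-KO line is 1 clone made with CRISPR/Cas9, in which the labels name the genotype a PARP1 knockdown and the titles a knockout, so every library compared here lacks the targeted part of PARP1. Cells received 5 μM OL9-119 dissolved in 0.1% DMSO, or 0.1% DMSO alone, and were harvested after 5 to 5.5 h. The other PARP1-KO groups, with 4 libraries each, were left without treatment, or received 50 nM topotecan (Tpc) with 0.1% DMSO or 50 nM Tpc with 5 μM OL9-119. WT HEK293A cells received the same treatments, with 100 nM Tpc in place of 50 nM. The values were raw read counts per gene from poly(A)-selected, strand-marking libraries. The total count was 8260515 to 15159099 in the OL9-119 libraries and 9724675 to 18458588 in the DMSO libraries. The labels call the replicates biological without saying what was prepared separately, so the p-values measure the spread between these libraries, which may be technical.

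TDP1 removes the peptide that remains on a DNA end when topoisomerase 1 (TOP1) is trapped on DNA, and it also acts on other blocked 3′ ends. It is found in the nucleus and in mitochondria, where a relative of TOP1 works on the circular mitochondrial genome. PARP1 marks DNA breaks with poly(ADP-ribose) and helps to bring TDP1 to them. Mitochondrial DNA is transcribed from both strands into long precursors: that of the heavy strand begins next to the 12S rRNA gene and runs through both rRNAs, 12 mRNAs and most tRNAs, and that of the light strand carries ND6 and the remaining tRNAs.

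PARP1 reads were 30.4 to 45.1 CPM (counts per 1e6 counted reads) in the 20 PARP1-KO libraries and 696 to 879 CPM in the 20 WT libraries, so the 2 lines were separated in every library. These are counts over the whole gene, and reads from exons outside the deleted part are among them. In the 8 libraries compared here PARP1 lay at 32.5 to 42.1 CPM with OL9-119 and at 30.5 to 46 CPM with DMSO, here and below after TMM normalization. Of 12 genes that mark HEK293 cells, VIM reached 821 to 951 CPM, KRT8 535 to 686 CPM and NEFL 252 to 284 CPM, while PAX2 and EPCAM stayed at or below 1.63 CPM. Of 15 markers of other cell types, COL1A1 (9.76 to 15.7 CPM) and LUM (1.41 to 6.37 CPM) were the highest, and PTPRC, CD3E, HBB and COL1A2 had at most 4 reads in any of the 8 libraries.

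By a ratio of 2 mitochondrial transcripts, 2 libraries went against their labels. The ratio of 12S rRNA reads to ND5 reads, both from mitochondrial DNA, was 11.4, 14.8, 14.7 and 11.6 in the 4 OL9-119 libraries of PARP1-KO cells. In the DMSO libraries it was 1.92, 2.23, 12.9 and 2.88 for replicates 1 to 4, so the library labelled DMSO replicate 3 lay inside the range of the OL9-119 libraries. The Tpc + OL9-119 libraries of the same cells had 9.62, 12.9, 2.1 and 13.8, and there the library labelled replicate 3 lay inside the range of DMSO replicates 1, 2 and 4 and next to that of the untreated cells (2.12 to 2.39). Over the other 38 libraries of both lines the ratio separated the labels completely: 6.83 to 14.8 with OL9-119 and 0.88 to 2.88 without it. This ratio was chosen after values were seen, and both its transcripts are among those called below. The separation therefore describes these libraries and is no separate test of their labels.

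**Figure D1:**
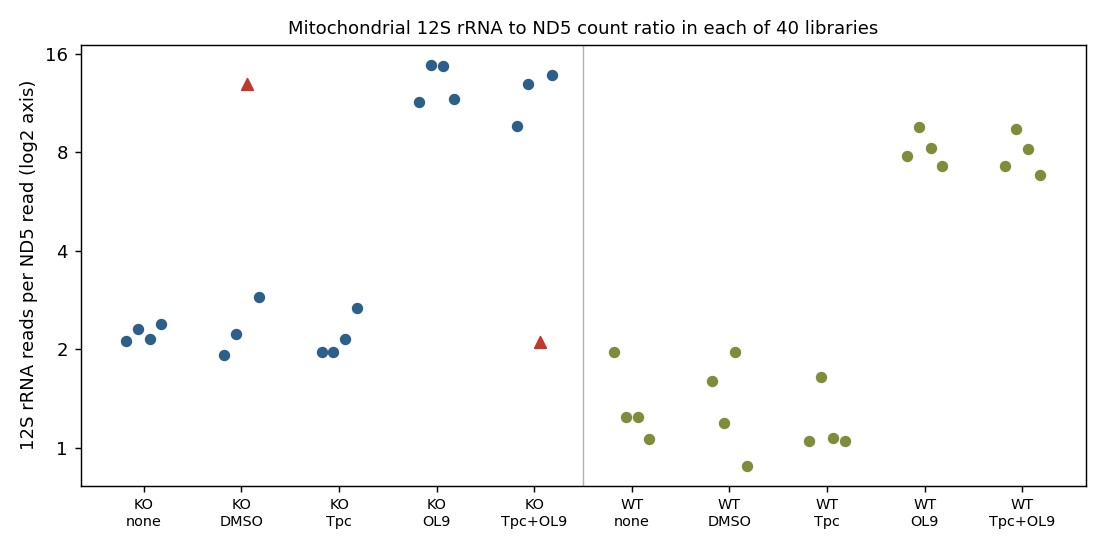
Ratio of 12S rRNA reads to ND5 reads in each of the 40 libraries, on a log2 axis, by cell line and treatment (none: no treatment; OL9: OL9-119); each point is 1 library. The triangles are the libraries labelled DMSO replicate 3 (12.9) and Tpc + OL9-119 replicate 3 (2.1) of PARP1-KO cells, which lie on the other side of the gap from their groups.

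Genes that span at least 500 kb gave a second view of the same libraries. Over 160 such genes with at least 50 counts on average, the median deviation from the mean of the 20 PARP1-KO libraries (log2 of CPM) was -0.331 to -0.295 in Tpc + OL9-119 replicates 1, 2 and 4 and -0.324 to -0.159 in the 4 Tpc libraries. It was 0.158, 0.181 and 0.171 in DMSO replicates 1, 2 and 4 and 0.171 to 0.303 in the OL9-119 libraries. The library labelled DMSO replicate 3 had -0.178, within the range of the Tpc libraries, and that labelled Tpc + OL9-119 replicate 3 had 0.154, within the range of the untreated cells (0.099 to 0.247). These genes were chosen with earlier results of these data known. Like the ratio, their values describe the libraries and are no separate test of the labels. The labels were kept as given, no library was moved to another group, and calls are given with and without the library labelled DMSO replicate 3. The other one enters these tests only through the shared estimate of the spread.

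With all 8 libraries, 1 of 27009 genes with at least 10 counts over the 20 PARP1-KO libraries passed the threshold, which is 0.0037% of those tested (edgeR quasi-likelihood F-test, Benjamini-Hochberg adjusted p below 0.01). It was MT-ND5, a mitochondrial mRNA, which fell. At an unadjusted p below 0.05 there were 1141 genes, 510 higher and 631 lower with OL9-119, which is 4.22% of the genes tested. Without the library labelled DMSO replicate 3, 12 of 26845 genes passed, 3 higher and 9 lower (0.0447%), and 1638 had an unadjusted p below 0.05 (6.1%). The 12 transcripts were MT-RNR1, MT-RNR2 and TFRC, which rose, and MT-ND5, MT-TP, MT-CO2, ACTB, ACTG1, CCN1, CCN2, EPPK1 and HSPA8, which fell. For none of the 12 did the library labelled DMSO replicate 3 lie within the range of the other 3 DMSO libraries, and it stood 65.5% to 148% of the way from their mean to the mean of the OL9-119 libraries. That library was left out because of these same counts, so the 12 calls describe the other 7 libraries.

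The 12 calls were not equally stable when 1 further library was left out. MT-ND5, MT-RNR1, TFRC and ACTB passed in all 7 such fits, and CCN1 and EPPK1 in 5, with adjusted p-values of up to 0.0181 and 0.0441. MT-TP passed in 2 (up to 0.229), MT-RNR2 in 1 (up to 0.363), MT-CO2 in 1 (up to 0.212), CCN2 in 1 (up to 0.19), ACTG1 in 1 (up to 0.178) and HSPA8 in none of the 7 (up to 0.153). With RLE normalization the calls of MT-RNR2 (adjusted p = 0.0107), ACTG1 (0.0109), HSPA8 (0.0169) and MT-CO2 (0.0202) were lost. DESeq2 did not call MT-RNR2 (0.0191), HSPA8 (0.0146), MT-CO2 (0.0268) or MT-ND5 (0.0306) and gave no adjusted p for MT-TP. It called 17 genes, of which 7 were among the 12. The genes that it added included ZNF639 (DESeq2 adjusted p = 0.000714), ID4 (0.00271), TPI1 (0.00509), PRDX1 (0.00549), MYH9 (0.00689), PALB2 (0.00746) and HSPA1B (0.00988). With filterByExpr or the legacy option off, MT-RNR2, MT-CO2, MT-TP, CCN2, ACTG1 and HSPA8 did not pass.

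DMSO alone set the background. Against untreated PARP1-KO cells, 0 of 27009 genes passed in DMSO with all 4 DMSO libraries, and 0 of 26845 without replicate 3 (edgeR, adjusted p below 0.01; 889 and 554 genes at an unadjusted p below 0.05). DESeq2 also called 0, with 585 genes at an unadjusted p below 0.05. With the untreated cells in the place of DMSO as the comparator of OL9-119, 14 genes passed, 3 higher and 11 lower (0.0518%).

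**Figure D2:**
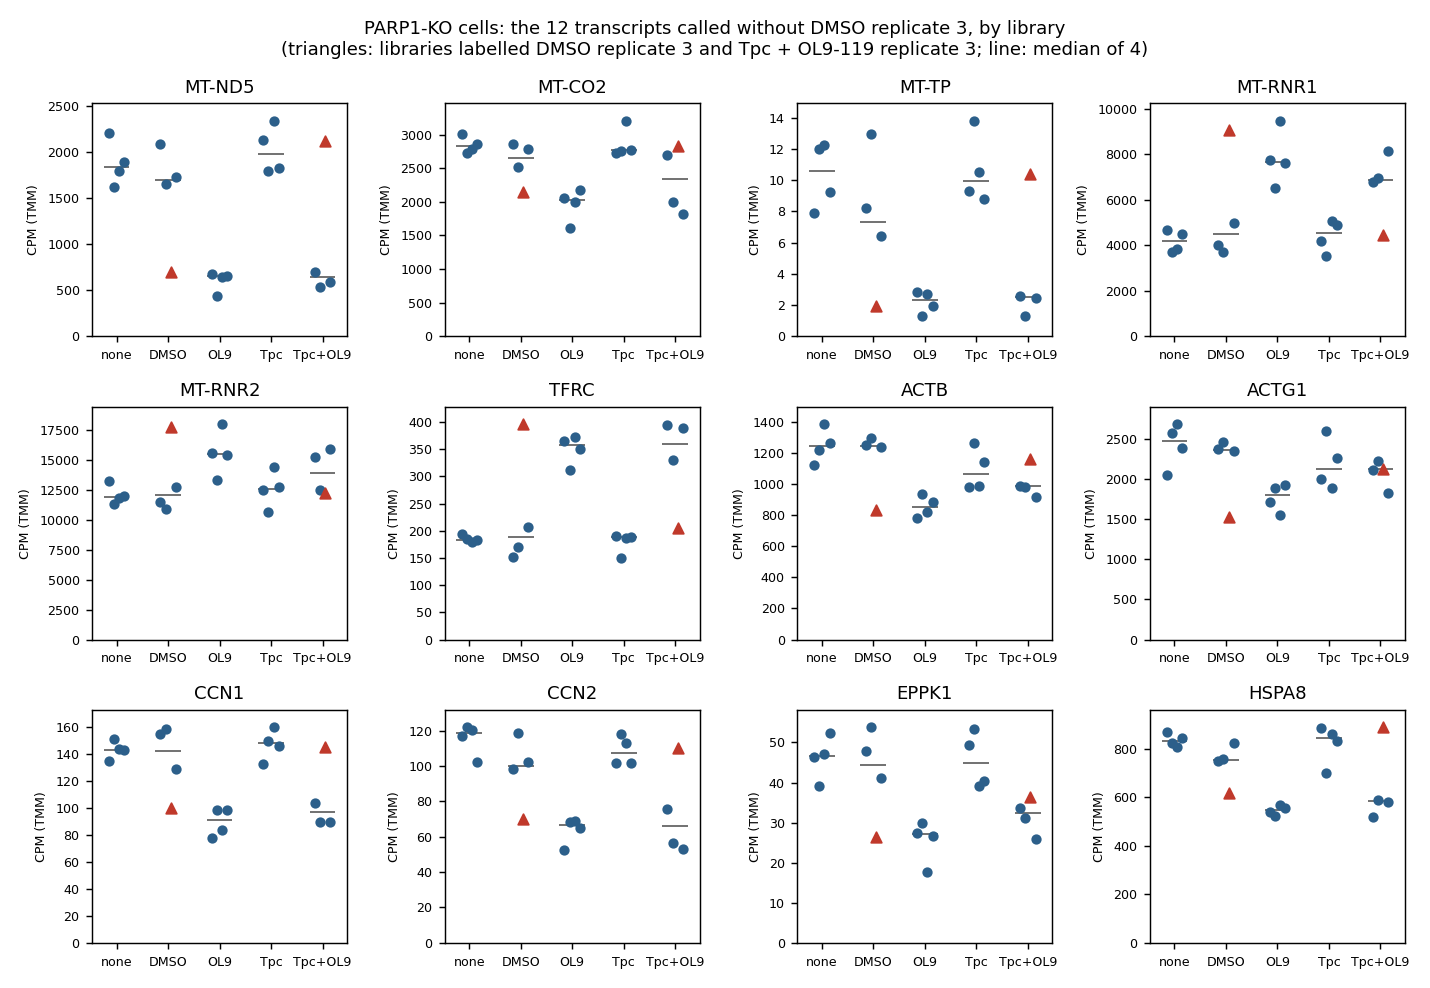
CPM (TMM normalized, linear axes from 0) of the 12 transcripts that passed without DMSO replicate 3, in the 20 PARP1-KO libraries by treatment; each point is 1 library and each line the median of 4. The triangles are the libraries labelled DMSO replicate 3 and Tpc + OL9-119 replicate 3; for MT-ND5 the former had 702 CPM and the latter 2125 CPM.

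MT-ND5 (ENSG00000198786; chrM:12337-14148 of hg38, plus strand), which encodes a subunit of respiratory complex I, had 675, 439, 645 and 657 CPM in the OL9-119 libraries. The DMSO libraries had 2092, 1656, 702 and 1731 CPM for replicates 1 to 4, and the untreated libraries 1618 to 2202 CPM. All 4 OL9-119 libraries lay under all 4 DMSO libraries, with DMSO replicate 3 just above the highest of them. The log2 fold change was -1.36 (SE 0.23, adjusted p = 0.00965), and -1.59 (SE 0.20, adjusted p = 3.28e-06) without DMSO replicate 3. An exact two-sided permutation test of the CPM of this gene alone gave p = 0.0286 in both cases, the smallest that 4 against 4 or 4 against 3 libraries allow. The gene was picked from these same libraries, so this p-value adds no separate support. Of 12244 genes with at least 50 counts on average, 3.41% likewise had no overlap between the groups, and 14.3% without DMSO replicate 3. With all 8 libraries the call was lost whenever any 1 of the other 7 was left out, with adjusted p-values of 0.0435 to 0.212.

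The 2 mitochondrial rRNAs stood at the other end. MT-RNR1, the 12S rRNA of the small mitochondrial ribosomal subunit (ENSG00000211459; chrM:648-1601), had 7725, 6516, 9467 and 7593 CPM with OL9-119 and 4021, 3700, 9050 and 4980 CPM with DMSO. Apart from the library labelled DMSO replicate 3 the groups did not overlap. The log2 fold change was 0.53 (SE 0.15, adjusted p = 1) with all 8 libraries and 0.89 (SE 0.12, adjusted p = 3.28e-06) without it. MT-RNR2, the 16S rRNA of the large subunit (ENSG00000210082; chrM:1671-3229), had 15604, 13376, 18035 and 15443 CPM against 11515, 10948, 17746 and 12743 CPM, and its log2 fold change was 0.24 with all 8 and 0.41 (SE 0.08, adjusted p = 0.00855) without it. Poly(A) selection leaves an unknown share of these rRNAs in a library, so the values are those of the RNA that was captured.

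Between these ends, log2 fold changes were mostly lower the farther a gene lay from the 12S rRNA gene. Of the 37 genes of chromosome M, 25 were tested: 13 mRNAs, 2 rRNAs and 10 tRNAs. Over the 14 mRNAs and rRNAs of the heavy-strand transcript, distance of the gene start from the 12S start and log2 fold change had a Spearman correlation of -0.767, and -0.776 without DMSO replicate 3; these transcripts share 1 precursor and the same libraries, and the value is a description. MT-ND1, a complex I subunit and the first mRNA, had 0.18 and MT-ND2, the next, -0.01, or 0.29 and 0.11 without DMSO replicate 3. MT-CO1 and MT-CO3, subunits of cytochrome c oxidase, had -0.12 and -0.23 with all 8 libraries. MT-ATP8 and MT-ATP6, of the ATP synthase, had -0.40 and -0.18. The complex I subunits MT-ND3, MT-ND4L and MT-ND4 had -0.50, -0.43 and -0.35, and MT-CYB, of complex III and the last mRNA, had -0.20. None of these 10 passed the threshold in either fit. The step from MT-ND4 to MT-ND5 was the steepest fall along the strand, and it was followed by a larger rise to MT-CYB, although that gene lies farther away.

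MT-CO2, a subunit of cytochrome c oxidase (ENSG00000198712; chrM:7586-8269), passed without DMSO replicate 3. It had 2062, 1606, 1990 and 2169 CPM with OL9-119 and 2861, 2521, 2146 and 2790 CPM with DMSO. Replicate 3 of DMSO again lay among the OL9-119 libraries. The log2 fold change was -0.40 with all 8 libraries and -0.47 (SE 0.09, adjusted p = 0.00855) without it. Once each library was corrected for gene length and GC content it was -0.38 with an adjusted p of 0.223, the only one of the 12 that did not then pass.

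**Figure D3:**
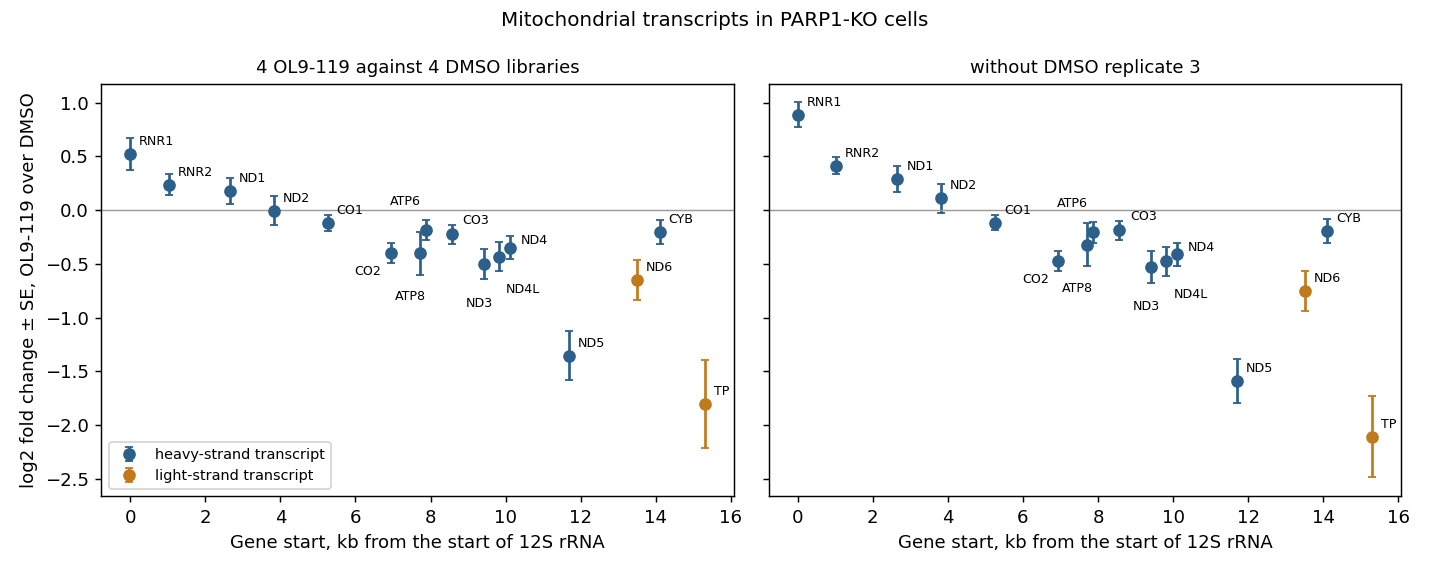
log2 fold change with its SE for the mitochondrial mRNAs, rRNAs and MT-TP in PARP1-KO cells, by the distance of the gene start from the start of the 12S rRNA gene in kb, with all 8 libraries and without DMSO replicate 3. The values run from 12S rRNA (0.53; 0.89 without replicate 3) down to MT-ND5 (-1.36; -1.59), and the light-strand MT-TP is the lowest point in both panels.

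Transcripts of the light strand were low as well. MT-TP, the tRNA for proline and the first gene that the light-strand precursor meets, was the only tRNA with 50 counts or more on average (ENSG00000210196; chrM:15956-16023, minus strand). Its sequence, read from hg38 in the sense of the tRNA, is shown because it had the largest fold change of the 12 transcripts.
MT-TP: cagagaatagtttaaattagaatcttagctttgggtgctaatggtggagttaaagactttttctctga
MT-TP had 2.87, 1.3, 2.7 and 1.97 CPM with OL9-119, from 20 to 24 reads a library, and 8.25, 13, 1.93 and 6.45 CPM with DMSO. Its log2 fold change was -1.81 (SE 0.41, adjusted p = 0.284) with all 8 libraries and -2.11 (SE 0.38, adjusted p = 0.00322) without DMSO replicate 3. MT-ND6, the mRNA of this strand, had 65.8, 170, 91.6 and 94.4 CPM against 122.4, 240, 124.7 and 175 CPM, and a log2 fold change of -0.65 (SE 0.19, adjusted p = 1), or -0.76 (adjusted p = 0.139). MT-TE, the tRNA for glutamate beside ND6, had 0 reads in all 4 OL9-119 libraries, 5, 15, 0 and 6 reads in the DMSO libraries and 0, 20, 24 and 19 in the untreated ones. MT-TA, the alanine tRNA, likewise had 0 reads in all 4 OL9-119 libraries and 5, 8, 0 and 4 with DMSO. MT-TS1, a serine tRNA, had 10, 14, 0 and 2 reads with OL9-119 and 5, 22, 15 and 12 with DMSO. The 8 light-strand tRNAs summed to 5.27, 2.4, 3.6 and 2.16 CPM with OL9-119, 12, 18.2, 3.38 and 9.94 CPM with DMSO and 10.4 to 17.2 CPM without treatment. Most of these reads were of MT-TP. Without MT-TP the sums were 2.39, 1.1, 0.899 and 0.188 CPM with OL9-119 and 3.71, 5.16, 1.45 and 3.49 CPM with DMSO. Which strand column the authors kept was not stated, and poly(A)-selected libraries hold few tRNA reads, so these may come from precursors or from antisense RNA.

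The boundary at which the heavy-strand values dropped is the tRNA cluster for histidine, serine and leucine that separates ND4 from ND5 (chrM:12138-12336 of hg38, plus strand), none of whose 3 tRNAs had a read in the 8 libraries. The cluster and the first 120 bases of ND5 (chrM:12337-12456) are shown as the interval of that step, with the ATA start codon of ND5 in capitals.
tRNA cluster: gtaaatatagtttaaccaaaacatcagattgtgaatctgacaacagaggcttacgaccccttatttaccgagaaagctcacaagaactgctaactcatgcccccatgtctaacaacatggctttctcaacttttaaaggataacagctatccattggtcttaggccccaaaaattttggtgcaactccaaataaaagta
start of ND5: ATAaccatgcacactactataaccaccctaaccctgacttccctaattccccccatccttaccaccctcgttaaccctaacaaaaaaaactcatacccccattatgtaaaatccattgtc

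Of the nuclear genes, TFRC, the transferrin receptor that takes iron into cells, rose without DMSO replicate 3 (ENSG00000072274; chr3:196012511-196082153, minus strand). TFRC had 365, 313, 373 and 350 CPM with OL9-119 and 152, 171, 397 and 208 CPM with DMSO, and 179.1 to 193.9 CPM in the untreated libraries. Apart from the library labelled DMSO replicate 3, which was above all 4 OL9-119 libraries, the groups were far apart. The log2 fold change was 0.60 (SE 0.16, adjusted p = 1) with all 8 libraries and 0.99 (SE 0.12, adjusted p = 2.19e-06) without that library. TFRC was in the list of metallothionein and metal response genes, of which no other of the 11 tested passed: the median log2 fold change of that list was -0.04, and -0.05 without DMSO replicate 3.

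The genes that fell without DMSO replicate 3 included both cytoplasmic actins. ACTB (ENSG00000075624; chr7:5526409-5563902, minus strand) had 778, 938, 820 and 884 CPM with OL9-119 and 1247, 1292, 832 and 1234 CPM with DMSO, and ACTG1 (ENSG00000184009; chr17:81509413-81523847, minus strand) had 1711, 1891, 1555 and 1917 CPM against 2368, 2464, 1521 and 2346 CPM. Their log2 fold changes were -0.43 and -0.30 with all 8 libraries, and -0.55 (SE 0.08, adjusted p = 8.6e-05) and -0.43 (SE 0.08, adjusted p = 0.00855) without the library labelled DMSO replicate 3, which had the levels of the OL9-119 group or lower. Actin genes have many processed pseudogenes, and reads that map to several places were not counted, so their levels are uncertain. EPPK1, which encodes epiplakin, a linker of the keratin cytoskeleton (ENSG00000261150; chromosome 8), had 27.5, 29.8, 17.7 and 26.6 CPM with OL9-119 and 47.9, 53.8, 26.5 and 41 CPM with DMSO, so that DMSO replicate 3 lay inside the OL9-119 range. Its log2 fold change was -0.73 (adjusted p = 0.239) with all 8 libraries and -0.90 (SE 0.15, adjusted p = 0.000507) without that library.

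CCN1 and CCN2 encode secreted matrix proteins whose genes respond to YAP and to serum. CCN1 (ENSG00000142871; chr1:85580761-85584589, plus strand) had 77.9, 98.2, 83.4 and 98.9 CPM with OL9-119 against 155, 158, 100 and 129 CPM with DMSO. CCN2 (ENSG00000118523; chr6:131948176-131951372, minus strand) had 52.8, 68.6, 69 and 65.1 CPM against 98.1, 119, 69.8 and 102.4 CPM. In both genes all OL9-119 libraries were below all DMSO libraries, with replicate 3 of DMSO next to the highest of them. CCN1 had a log2 fold change of -0.60 (SE 0.12, adjusted p = 0.111) with all 8 libraries and -0.71 (SE 0.11, adjusted p = 0.000294) without that library, and CCN2 had -0.61 (SE 0.14, adjusted p = 0.299) and -0.73 (SE 0.13, adjusted p = 0.00443).

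HSPA8, the constitutive cytosolic HSP70 chaperone (ENSG00000109971; chr11:123057489-123063230, minus strand), had 539, 525, 570 and 556 CPM with OL9-119 and 752, 760, 618 and 823 CPM with DMSO. The groups did not overlap, and DMSO replicate 3 lay between them. The log2 fold change was -0.43 (SE 0.10, adjusted p = 0.284) with all 8 libraries and -0.50 (SE 0.10, adjusted p = 0.00855) without it. Its gene overlaps others on both strands in the annotation, snoRNA genes within its introns among them.

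Upstream sequences of 4 of these and related genes are shown with the letters that match 1 motif per gene, named here, in capitals, read from the RefSeq promoter table (GRCh38.p14; the 250 bases before the gene start, in the sense of the gene). ACTG1 (chr17:81512800-81513049) held a CArG box, the site of serum response factor, at -94 from the start, as 1.29% of 35116 promoters did. It also held an E-box CACGTG at -145, left in lower case (7.26% of promoters). CCN2 (chr6:131951373-131951622) held 3 copies of the TEAD element GGAATG, at -169, -104 and -95. Of all promoters 14% held this element at least once, and 45 promoters, or 0.13%, held 3 or more. HSPA8 (chr11:123062137-123062386) held 2 heat shock elements GAANNTTC, at -230 and -50 (6.77% of promoters held one). CHAC1 (chr15:40953221-40953470), described below, held 1 CEBP-ATF response element TGATGNAAN, at -210 on the opposite strand (3.61% of promoters). Motifs were searched on both strands in windows that run to 50 bases past the start, and no printed match overlapped another; the CArG box and the TEAD element were chosen after values were seen. ACTB and CCN1 were not matched in the table. A match describes letters only.
ACTG1: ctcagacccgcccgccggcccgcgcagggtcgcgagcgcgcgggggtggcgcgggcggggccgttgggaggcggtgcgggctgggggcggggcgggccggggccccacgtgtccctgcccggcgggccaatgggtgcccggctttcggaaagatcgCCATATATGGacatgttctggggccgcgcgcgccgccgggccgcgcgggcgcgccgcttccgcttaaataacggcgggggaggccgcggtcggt
CCN2: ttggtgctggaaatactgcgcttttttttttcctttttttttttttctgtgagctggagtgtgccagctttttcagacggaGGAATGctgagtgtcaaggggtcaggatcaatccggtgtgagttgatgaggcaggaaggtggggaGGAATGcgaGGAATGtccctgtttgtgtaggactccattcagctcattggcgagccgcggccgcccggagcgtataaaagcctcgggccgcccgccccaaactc
HSPA8: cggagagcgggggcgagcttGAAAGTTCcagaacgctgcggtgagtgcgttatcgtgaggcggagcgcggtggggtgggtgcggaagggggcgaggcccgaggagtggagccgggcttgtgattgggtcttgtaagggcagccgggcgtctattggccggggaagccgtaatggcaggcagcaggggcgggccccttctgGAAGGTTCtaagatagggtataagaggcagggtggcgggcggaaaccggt
CHAC1: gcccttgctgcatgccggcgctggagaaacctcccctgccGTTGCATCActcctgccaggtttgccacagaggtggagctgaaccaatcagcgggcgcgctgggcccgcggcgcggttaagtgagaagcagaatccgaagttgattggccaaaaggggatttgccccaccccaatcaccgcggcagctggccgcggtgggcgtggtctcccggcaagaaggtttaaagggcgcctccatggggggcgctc

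A list of 40 genes of the actin cytoskeleton with targets of SRF and YAP was put together after these values were seen, to describe the neighbours of the actins and CCN genes. All 40 were tested. With all 8 libraries 4 were higher and 36 lower with a median log2 fold change of -0.21, and 0 passed. Without DMSO replicate 3 there were 3 higher and 37 lower with a median of -0.29, and the 4 that passed were ACTB, ACTG1, CCN1 and CCN2. The median of all genes tested was -0.01 in both fits. MYH9, the heavy chain of non-muscle myosin, had 437, 471, 402 and 486 CPM with OL9-119 and 583, 644, 343 and 583 CPM with DMSO, and its log2 fold change was -0.26 (adjusted p = 1), or -0.42 (adjusted p = 0.0146) without replicate 3. FLNA, the actin crosslinker filamin A, had -0.25 and, without replicate 3, -0.39 (adjusted p = 0.0914). Once each library was also corrected for gene length and GC content, MYH9 had -0.305 (adjusted p = 0.0825) and FLNA -0.23 (adjusted p = 0.314). ACTB, ACTG1, CCN1 and CCN2 then had -0.46, -0.369, -0.708 and -0.677 and still passed. The median of this list was not computed with that correction. In the 34 promoters of this list that the table held, 5 had a CArG box (14.7%, against 1.29% of all promoters), those of ACTG1, FLNA, TPM4, CNN2 and SRF, and 8 had a TEAD element (23.5%, against 14%). The list was compiled to hold targets of SRF and YAP, so a higher share of such sites can follow from the choice of genes. These shares say nothing on the response to OL9-119.

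Genes with 50 counts or more on average and no overlap between the 4 OL9-119 and the 4 DMSO libraries numbered 417 of 12244, or 3.41%, with 188 higher (1.54%) and 229 lower (1.87%). The 6 of smallest p among those higher with OL9-119, none of which passed, were SLC7A11, TMCC1, COP1, MDM2, GRIP1 and GLIS3. SLC7A11, the cystine transporter, had 38.1, 30.5, 38.3 and 35.9 CPM with OL9-119 and 24.1, 26.5, 25.7 and 25.5 CPM with DMSO (log2 fold change 0.48, adjusted p = 1). MDM2, the ubiquitin ligase of p53, had 515, 477, 538 and 486 CPM against 406, 400, 449 and 397 CPM (log2 fold change 0.29, and 0.33 without DMSO replicate 3). GRIP1 and GLIS3, both spanning over 500 kb, had log2 fold changes of 0.69 and 0.65, and 0.59 and 0.45 without DMSO replicate 3. TMCC1 had 0.58 and COP1, another ubiquitin ligase, had 0.39, and 0.55 and 0.36 without it. In the other direction, beside MT-ND5, CCN1, HSPA8 and CCN2, the rule named PRDX1, a peroxiredoxin that reduces hydrogen peroxide, with a log2 fold change of -0.32 (adjusted p = 0.584).

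Without DMSO replicate 3, genes that did not overlap numbered 1753 of 12244, or 14.3%, with 779 higher (6.36%) and 974 lower (7.95%). Beside the called genes, the rule then named ID4, ZNF639 and DDIT3 among those higher. ID4, an inhibitor of basic helix-loop-helix factors, had 379, 410, 393 and 393 CPM with OL9-119 and 286, 301, 385 and 286 CPM with DMSO, and its log2 fold change was 0.32 with all 8 libraries and 0.44 (adjusted p = 0.0236) without DMSO replicate 3. ZNF639 had 0.28 and 0.45 (adjusted p = 0.057). DDIT3, the stress transcription factor CHOP, had 125.9, 136, 135 and 128.2 CPM against 96.3, 88.1, 126.8 and 100.9 CPM, with 0.47 (adjusted p = 0.0914). Its gene overlaps others on both strands.

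Other genes set the library labelled DMSO replicate 3 apart without lying on the side of OL9-119. SUSD4, a membrane protein with complement control repeats, had 1.16 CPM there, against a mean of 6.12 CPM in the other DMSO libraries and 5.3 CPM in the OL9-119 libraries. SPRY3, of the Sprouty family of signalling inhibitors, had 9.56 CPM against 3.36 and 4.25 CPM. Both genes were picked from the most extreme ratios of that library to the other DMSO libraries, so their distance from those libraries follows from the choice. CHAC1 and MT-TP were among the same extremes, and there the library lay on the side of OL9-119. The values describe these genes only. Over long genes that library also lay outside both groups.

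The gene lists are described by counts and medians of the log2 fold change, beside the median of -0.01 of all genes tested. Nuclear genes of oxidative phosphorylation were mostly lower: of 37 complex I subunits 31 were lower with a median of -0.14, and of 43 subunits of complexes II to V 40 were lower with a median of -0.15. None passed in either fit, and without DMSO replicate 3 the medians were -0.20 and -0.19. NDUFB11, an accessory subunit of complex I, had 103.2, 119.8, 107.7 and 122.7 CPM with OL9-119 and 144, 141, 123.3 and 145 CPM with DMSO (log2 fold change -0.29). COX6B1 of cytochrome c oxidase had -0.28 and ATP5MC3, a ring subunit of the ATP synthase, had -0.28. Of 13 mitochondrially encoded mRNAs 12 were lower, with a median of -0.35, and MT-ND5 was the 1 that passed.

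Medians were below 0 in further lists. Of 79 cytosolic ribosomal protein genes 77 were lower (median -0.07; -0.11 without DMSO replicate 3), with 0 called. Proteasome subunits had a median of -0.09 (35 of 42 lower), spliceosome snRNP proteins -0.09 (37 of 45 lower), and glycolysis and hypoxia genes -0.12 (27 of 36 lower; -0.21 and 32 of 36 without DMSO replicate 3). TPI1, a glycolytic isomerase, had 788 to 852 CPM with OL9-119 and 1051, 961, 760 and 979 CPM with DMSO. FASN, the fatty acid synthase, had a log2 fold change of -0.39, and of -0.54 with an adjusted p of 0.0252 without DMSO replicate 3. Of 313 tested genes that span at least 500 kb, 221 were higher and 89 lower with a median of 0.16, or 0.10 without that library, and 0 passed.

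Among the other lists, 12 AHR and cytochrome P450 genes had a median of -0.20 (-0.25 without DMSO replicate 3), with 8 lower and 0 called; CYP1B1, a cytochrome P450 induced by AHR, had -0.41. Immediate early genes had 2 calls without DMSO replicate 3, CCN1 and CCN2 (median of 34 genes -0.05, and -0.09 without it). Of 25 ER chaperones and unfolded protein response genes 14 were higher (median 0.03), and HSPA5, the ER chaperone BiP, had 0.16. Of 25 genes of cholesterol synthesis 20 were lower (median -0.08), of 27 NRF2 and glutathione genes 18 were lower (median -0.07), and of 28 NF-kappa B genes 16 were lower (median -0.03). CXCL8, a chemokine, had 0.31, and 0.46 with an adjusted p of 0.291 without DMSO replicate 3. G2 and mitosis genes (38, median -0.01), genes of G1/S and DNA replication (47, median -0.05) and apoptosis genes (29, median -0.03) had no call.

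Over single genes, the log2 fold change was related to base composition and length. Over 12219 genes the log2 fold change had Spearman correlations of -0.28 with GC content, 0.196 with exon length and 0.295 with genomic span, and of -0.52, 0.179 and 0.247 without DMSO replicate 3. Genes share libraries and are not independent replicates, and the values are descriptions. With offsets that removed the relation to length and GC content in each library, and without DMSO replicate 3, the medians were -0.12 for complex I, -0.17 for complexes II to V, -0.08 for cytosolic ribosomal proteins and -0.14 for glycolysis and hypoxia. The median turned from -0.09 to 0.04 for immediate early genes (22 of 34 higher), and that of NF-kappa B genes was 0.09 (18 of 28 higher). In that fit 17 genes passed, 11 of which were among the 12. MT-ND6, HSPA1B, DDIT3, CHAC1, MYL6 and RBM12 were the others.

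**Figure D4:**
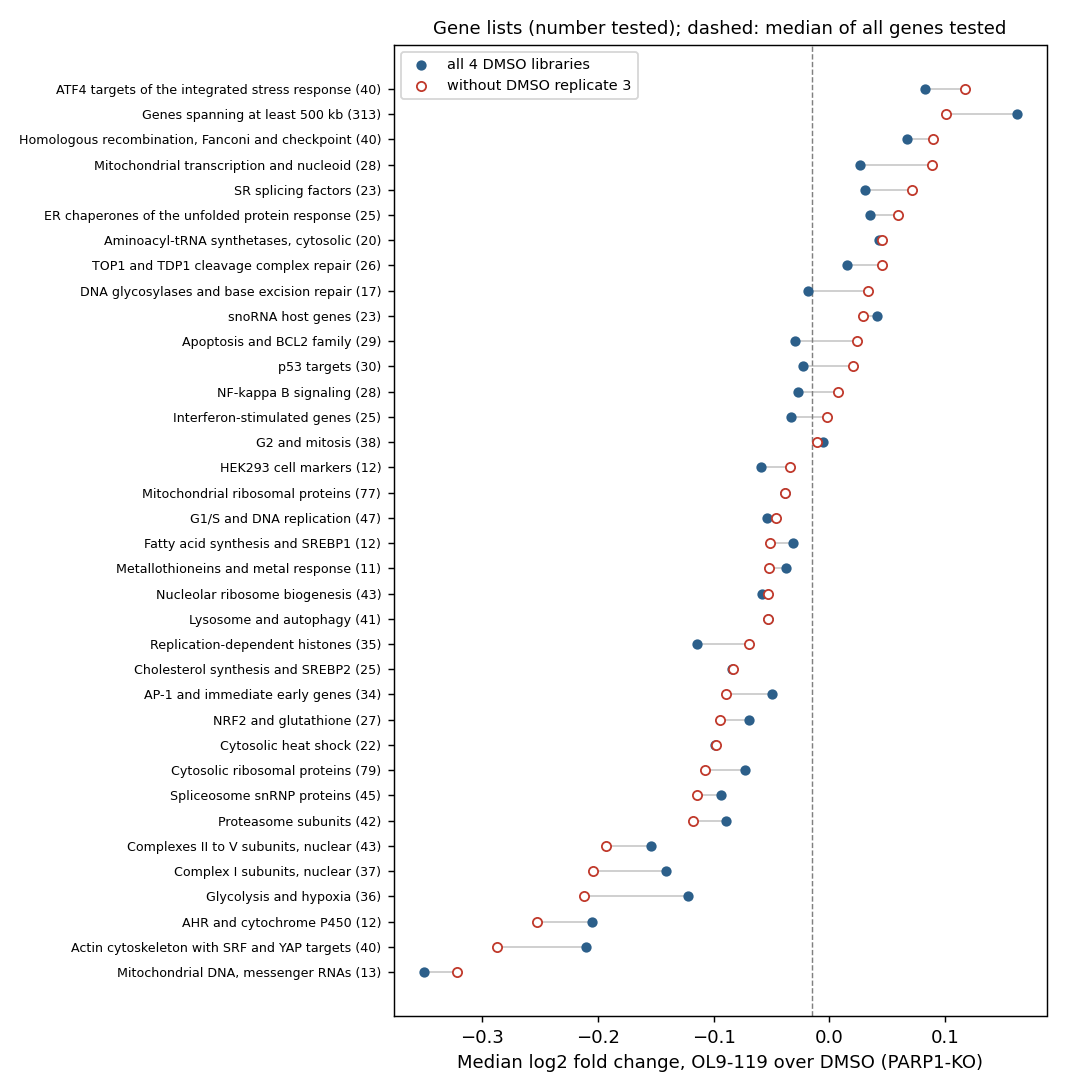
Median log2 fold change (OL9-119 over DMSO, PARP1-KO) of each gene list, with the number of genes tested in parentheses; filled points used all 4 DMSO libraries and open points left out replicate 3, and the dashed line is the median of all genes tested (-0.01). Markers of other cell types are not plotted. Mitochondrial mRNAs lie at -0.35 and -0.32, the actin list put together after values were seen at -0.21 and -0.29, AHR and cytochrome P450 genes at -0.20 and -0.25, and genes spanning at least 500 kb at 0.16 and 0.10.

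Genes of the pathway that OL9-119 targets showed no call with edgeR in either fit. TDP1 itself had 49.4, 26.6, 29.7 and 31.4 CPM with OL9-119 and 29.7, 29.7, 27 and 31.2 CPM with DMSO, a difference in means of 4.86 CPM that came from 1 library (exact two-sided permutation test, p = 0.6; p = 0.83 without DMSO replicate 3). Without OL9-119 replicate 1 its log2 fold change was -0.01. TDP2, the phosphodiesterase for topoisomerase 2 adducts, had a log2 fold change of -0.02 (SE 0.12), TOP1 -0.02 (SE 0.09) and PARP1 -0.08 (SE 0.13). Of 26 genes for the repair of trapped TOP1, 14 were higher and 12 lower with a median of 0.02, and FEN1, a flap nuclease, had -0.20. Of 17 genes of base excision repair the median was -0.02, and the glycosylase NEIL3 had 0.32. Of 40 genes of homologous recombination, the Fanconi pathway and checkpoints, 26 were higher with a median of 0.07, or 34 with 0.09 without DMSO replicate 3. PALB2, which brings BRCA2 to breaks, had 49.9, 42.3, 50.5 and 43.1 CPM with OL9-119 and 29.8, 33.4, 44.5 and 33.8 CPM with DMSO (log2 fold change 0.39, adjusted p = 1; 0.52, adjusted p = 0.135 without DMSO replicate 3). With DESeq2 and without that replicate, PALB2 passed (adjusted p = 0.00746). Of 30 p53 targets 13 were higher and 17 lower, with a median of -0.02.

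Stress genes were compared with WT cells, which received the same dose of OL9-119. In WT cells 334 of 28922 genes passed (1.15%), 141 higher and 193 lower, in the fit of all 40 libraries, where PARP1-KO cells had 1 (0.00346%). The difference of the responses itself passed for 29 genes (0.1%), 6 with a higher and 23 with a lower value in PARP1-KO cells, and for 25 without the library labelled DMSO replicate 3 (0.0868%). Of 40 targets of ATF4, the transcription factor of the integrated stress response, 31 passed in WT cells, all of them higher. The median log2 fold change of the 40 in WT cells was 1.10. The counts that follow for PARP1-KO cells are by sign alone unless said to have passed. In PARP1-KO cells 32 of the 40 were higher than in DMSO with a median of 0.08 (29 and 0.12 without DMSO replicate 3), and 0 passed in either fit. The difference passed for 16 of the 40, all lower in PARP1-KO cells, with or without DMSO replicate 3.

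CHAC1, a glutathione-degrading enzyme, had a log2 fold change of 4.98 in WT cells (edgeR, adjusted p = 1.12e-12). In PARP1-KO cells it had 16.9, 23.3, 19.7 and 21.7 CPM with OL9-119 and 8.77, 9.35, 25.1 and 13 CPM with DMSO, a log2 fold change of 0.55, or 0.98 (adjusted p = 0.12) without DMSO replicate 3, which stood above all OL9-119 libraries. Against untreated PARP1-KO cells it had 1.31 (adjusted p = 0.00858) and passed. The difference of the responses was -4.44 (adjusted p = 4.28e-07; 4.18e-06 without that library). SLC7A11 had 2.76 in WT cells, DDIT3 1.87, DDIT4, an inhibitor of mTORC1, 1.93 and TRIB3, a pseudokinase, 1.58, against 0.48, 0.35, 0.32 and 0.09 in PARP1-KO cells, and each difference passed.

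Of 22 cytosolic heat shock genes, 19 were lower in PARP1-KO cells with a median of -0.10; 0 passed with all 8 libraries and HSPA8 passed without DMSO replicate 3. In WT cells 9 of the 22 passed, all of them lower, and the median of the 22 was -0.50. The 9 are genes that passed, whereas the 19 in PARP1-KO cells were counted by sign alone. The difference passed for 4, HSPA8, HSPA1B, DNAJA1 and DNAJB1, all with the smaller decrease in PARP1-KO cells. HSPA8 had -1.79 in WT cells and HSPA1B, an inducible HSP70 whose reads can be confused with those of its near copy HSPA1A, had -2.40 in WT and -0.37 in PARP1-KO cells. HSPE1, the mitochondrial co-chaperonin, had -0.39 in PARP1-KO cells and -1.10 in WT cells, and its difference did not pass (adjusted p = 0.514).

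**Figure D5:**
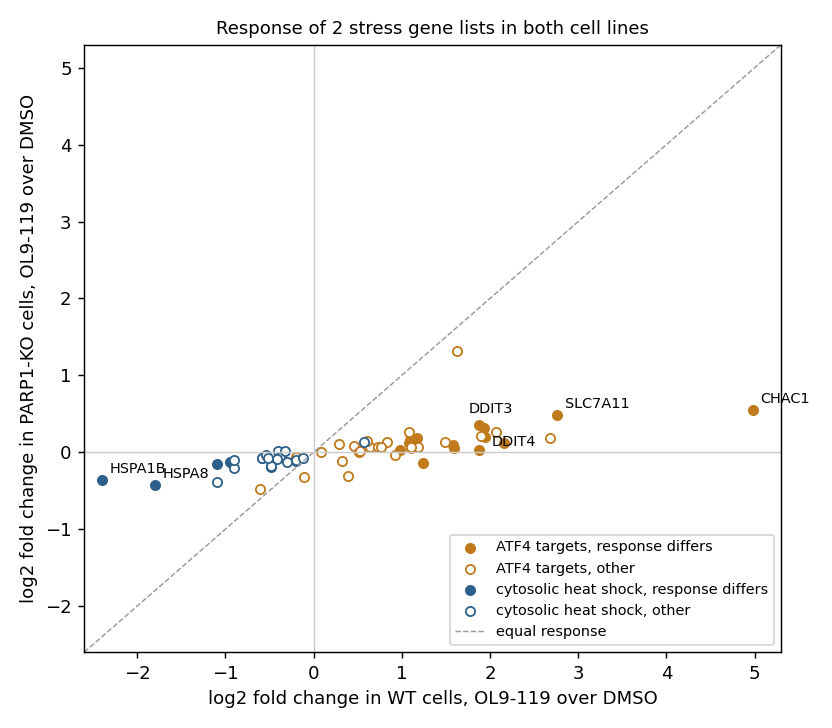
log2 fold change of OL9-119 over DMSO in PARP1-KO cells (20-library fit, all 4 DMSO libraries) against that in WT cells (40-library fit) for ATF4 targets and cytosolic heat shock genes; each point is 1 gene, filled where the difference of the responses passed (16 and 4 genes), and the dashed line marks equal responses. Most points lie near 0 on the PARP1-KO axis and spread along the WT axis.

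Of the 12 transcripts called without DMSO replicate 3 in PARP1-KO cells, 11 had the same sign in WT cells and 7 passed there, 6 of them with the same sign. Of all genes tested, 1.15% passed in WT cells, and the share with the same sign in both lines was not computed. MT-ND5, MT-CO2, MT-RNR1 and MT-RNR2 share a precursor and are not separate cases. MT-ND5 had -2.28 in WT cells (adjusted p = 1.16e-10), MT-TP -3.04, MT-CO2 -0.996, ACTB -0.58, TFRC 0.94 and HSPA8 -1.79, all of which passed. MT-RNR2 was the exception, at -0.59 in WT cells (adjusted p = 0.00125), and its difference between the lines passed (0.83, adjusted p = 0.00782; 7.1e-05 without DMSO replicate 3). For MT-ND5 the difference of 0.93 did not pass (adjusted p = 0.453). CCN1, CCN2 and EPPK1 had -0.18, -0.38 and -0.33 in WT cells, none of which passed, and their differences between the lines did not pass either (adjusted p of 0.624 to 0.898).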

How the data were processed

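Poly(A)-selected, directional libraries were sequenced as 100 bp paired-end reads by the authors, who aligned them to hg38 with STAR 2.7.8 and deposited raw counts per gene from its GeneCounts option; which strand column was kept is not given in the sources used here. The submitters' processing notes also name FastQC 0.11.9 and Picard 2.26.6. Gene symbols and coordinates came from GENCODE (hg38), which matched 57754 of 58395 genes. Total counts were 3455043 to 20379777 per library over all 40, and fewer counts widen the error of low genes.

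Genes whose counts over the 20 PARP1-KO libraries added up to 10 or more (19 without DMSO replicate 3) were tested with edgeR 4.0.16 in R 4.3.3: TMM normalization, 1 group per treatment, the quasi-likelihood F-test and Benjamini-Hochberg adjustment, with a threshold of 0.01. The SE is the log2 fold change divided by the square root of F. Responses of PARP1-KO and WT cells were compared in 1 fit of all 40 libraries. DESeq2 1.42.0 was an alternative. TDP1 and MT-ND5 were also tested by exact permutation of the libraries. In simulated counts of 26111 genes for the comparison with all 8 libraries, 38% of genes changed by 0.5 (log2) were recovered. For genes changed by 1 it was 91%, and there was 1 false call. Without DMSO replicate 3 (25953 genes) these were 23% and 91%, with 4 false calls. The simulation gave no DMSO library levels near those of the treated group, as DMSO replicate 3 had for the called transcripts. The shares recovered with all 8 libraries therefore do not say how many changes the real comparison missed.

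Named genes were PARP1, TDP1, TDP2 and TOP1, the called genes, those of smallest p with at least 50 counts on average and no overlap between groups up to 6 per direction, in both fits, the 3 members of smallest p in each gene list, and the genes that set DMSO replicate 3 apart. Results of 2 genes that these rules and the marker list name are not reported here. MYH9 and the actin list were chosen after values were seen, as were other mitochondrial genes and genes of the WT comparison. The members and lists were chosen with earlier results of these data known. Alternatives covered tool, normalization, filter, threshold, libraries in the fit, comparator, the replicate block, the prefix of library names, and offsets for gene length and GC content. Motif matches were counted over 35116 RefSeq promoters.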

Additional observations from a re-analysis of the deposited data

Results flagged for a closer look

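Among 60 genes, each with 2 groups of 4 libraries, 2 OL9-119 groups and 8 DMSO groups held 1 library that stood apart from the other 3 by Dixon's test at the 95% level. Chance marks about 1 in 20 groups, and genes share libraries. Some of the 60, such as ACTB, ID4 and ZNF639, were named from the fit without DMSO replicate 3. That rate is therefore no measure for the flags of that library. In the OL9-119 group, replicate 2 was low for MT-ND5 (439 CPM) and MT-CYB (1375 CPM). The other 8 were all the library labelled DMSO replicate 3, which was low for ACTB (831.6 CPM), ACTG1 (1521 CPM), PRDX1 (321.1 CPM), FASN (144.2 CPM) and NDUFB11 (123.3 CPM) and high for MDM2 (449.5 CPM), ID4 (385.2 CPM) and ZNF639 (107.8 CPM).

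The response to OL9-119 differed between PARP1-KO and WT cells, by the test of the difference itself, for 8 of the genes examined. The log2 difference (PARP1-KO minus WT) was 0.83 for MT-RNR2, 1.37 for HSPA8 and 2.03 for HSPA1B. It was -2.28 for SLC7A11, -1.52 for DDIT3, -1.61 for DDIT4, -4.44 for CHAC1 and -1.48 for TRIB3. All 8 also passed without DMSO replicate 3.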

How the results depend on the processing

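The count with all 8 libraries was 1 in the report. It was 0 with DESeq2, RLE normalization, filterByExpr or the legacy option off, 2 with length and GC offsets, 3 without Tpc + OL9-119 replicate 3 (chosen after seeing the data), and 14 with no filter on low counts or with untreated cells as comparator. Leaving out 1 library gave 0 to 12: DMSO replicate 3 gave 12 and each of the other 7 gave 0. Without DMSO replicate 3 the count of 12 became 2 with a log2 fold change of at least 1 required, 28 with no filter, 6 with filterByExpr or the legacy option off, 42 with the 7 libraries alone and 1 with all 39 other libraries. With DESeq2 it was 17. Chosen after seeing the data, it was 79 with DESeq2 on the 7 libraries and 26 with untreated cells as comparator and without Tpc + OL9-119 replicate 3. Leaving out 1 more library gave 4 to 15 (5 without DMSO replicate 1, 4 without DMSO replicate 2, 7 without DMSO replicate 4, 15 without Tpc + OL9-119 replicate 3 or OL9-119 replicate 2, 5 without OL9-119 replicate 3 and 7 without OL9-119 replicate 1 or 4). The difference between the lines had 29 genes, 52 with DESeq2. DMSO against no treatment had 0 in every setting run. The cause of these changes was not tested.

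Whether the replicate numbers pair the samples was left unsettled, and the main fits used no pairing. The correlations of same-numbered libraries were -0.074, 0.434, 0.333 and 0.091 for replicates 1 to 4. Those with the other numbers were on average -0.01, -0.025, -0.204 and -0.009. Of the replicates, 3 of 4 matched best with their own number. With the replicate block the counts were 14 with all 8 libraries and 38 without DMSO replicate 3.

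Some log2 fold changes near 0 changed sign. With untreated cells as comparator PARP1 had 0.042 and TDP2 0.074. Leaving out 1 library gave -0.175 to 0.009 for PARP1, -0.013 to 0.337 for TDP1, -0.1 to 0.108 for TDP2, -0.04 to 0.028 for TOP1 and -0.107 to 0.156 for MT-ND2. MT-ND2 was 0.011 with DESeq2 or RLE, 0.004 with the 8 libraries only, 0.015 with the prefix and 0.041 with offsets. Counting error limits genes such as MT-TP, at 20 to 24 reads per OL9-119 library.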
